A study of Mus musculus with 44 samples.

Results

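Solute carriers are membrane proteins that move amino acids, sugars, metals, ions and metabolites across the plasma membrane or organelle membranes, and here their genes were examined in single cells sorted as osteomacs, the macrophages of bone surfaces. All genes of the deposited table whose symbol begins with Slc and a digit were taken, except the iron transporter gene Slc11a1, which gave 59 of the 3613 genes listed. Primary calvarial cells from newborn C57BL/6J mice had been cultured for 16 h, and cells positive for CD45 and F4/80 and negative for CD41 were sorted and captured singly on a microfluidic chip. One group, called exposed cells below, came from cultures with 50000 added megakaryocytes and held 20 cells, all of plate 7. The other group, called unexposed cells, came from cultures that the treatment label gives as lacking megakaryocytes and held 24 cells, all of plate 3. The titles of both groups name megakaryocytes, so for the unexposed cells the title and the treatment label conflict.

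Most solute carriers couple the movement of a substrate to a gradient of sodium or protons, exchange one solute for another, or let it pass down its own gradient. Macrophages are known for digesting engulfed material in lysosomes, from which carriers return amino acids, nucleosides and haem to the cytosol. Some carriers reach the cell surface only with a partner: the heavy chain Slc3a2 carries the light chains of family 7, and basigin and embigin, single-pass proteins encoded by Bsg and Emb, carry the lactate transporters of family 16.

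Neither cultures nor animals are identified in the labels. Each group therefore counts as 1 sample with no test between them, and plate, treatment and cell identity cannot be told apart. The cells had a median of 834834.5 library reads (range 69181 to 1212604) in the exposed group, against 527930 (range 270537 to 714465) in the unexposed group. All 15 listed macrophage markers were higher in exposed cells, with a summed level of 2612 to 55760 CPM per cell, against 0 to 176 CPM in unexposed cells. All 8 listed stromal markers were lower in exposed cells, at a summed 3.88 to 196 CPM, against 5134 to 100600 CPM in unexposed cells. Ptprc, which encodes the sorting antigen CD45, had 8206 reads in exposed cells and 1 read in unexposed cells. Adgre1, which encodes F4/80, had 7780 reads in exposed cells and 1 read in unexposed cells. The RNA of the unexposed cells thus went against their gate and their label of osteomac, and their markers were stromal. None of the 11 megakaryocyte or 7 osteoclast markers fixed for the check was among the genes listed. CPM is the number of recovered reads per 1000000 library reads. Intervals below are exact 95% intervals. Those of ratios cover counting error of reads only, and those of shares of cells treat the cells of a group as independent draws. Neither covers differences between cultures or animals.

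Of the 59 genes, 49 were read in 10 or more of the 44 cells. A gene was called separating when its pooled CPM differed at least 4-fold between the groups and the share of cells at 10 CPM or more differed by at least 40 percentage points the same way. It was called shared when pooled CPM differed less than 2-fold, at least 25% of cells in each group reached 10 CPM, and those shares lay less than 25 points apart. In the shallowest cell 1 read amounts to 14.4 CPM, so that a single read passed the limit, while the deepest cell needed 12.1 reads. The recovered reads of a gene could be understated by a common factor, which the values cannot exclude. Such a factor would raise the gene's CPM against the 10 CPM limit, and with it the shares of cells and the calls, and would narrow its intervals; the ratio between the groups does not depend on it. With any read in place of 10 CPM, a limit that it does not touch, there were 6 separating genes on the exposed side, 4 on the unexposed side and 12 shared.

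On the exposed side 5 genes separated the groups: Slc43a2, Slc7a8 and Slc15a3 for amino acids and peptides, Slc37a2 for sugars and Slc16a6 for monocarboxylates. These 5 of 49 genes (10.2%) stood beside 6.18% of all 3271 genes that met the same minimum. Slc38a4, Slc39a7, Slc5a3 and Slc25a32, which serve amino acids, zinc, inositol and mitochondrial folate, separated the groups on the unexposed side; these 4 genes were 8.16% of the 49, near the 8.32% of all genes. Shared were 8 genes (16.3%, against 26.4% of all genes): Slc25a5, Slc39a1, Slc25a3, Slc6a6, Slc3a2, Slc48a1, Slc38a1 and Slc25a46. The other 32 lay between. By pooled CPM, 17 of the 49 were at least 2-fold higher in exposed cells (34.7%, against 24.4% of all genes) and 14 at least 2-fold lower (28.6%, against 28.3%). At 4-fold the counts were 13 higher (26.5%, against 14.2%) and 5 lower (10.2%, against 13.4%). In none of the 49 were the cells of one group all above those of the other, a pattern found in 0.703% of all genes. Pooled over a group, the 59 genes summed to 6757 CPM in exposed cells and 6692 CPM in unexposed cells. The median log2 ratio of pooled CPM, exposed over unexposed, was 0.38 over the 49 genes (26 higher, 23 lower) and −0.14 over all genes tested. The difference in mean log2(CPM + 1) had the opposite sign for the 49 genes, with a median of −0.61 (21 higher, 28 lower), and was −1.10 over all genes, of which 27.8% were higher.

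**Figure D1:**
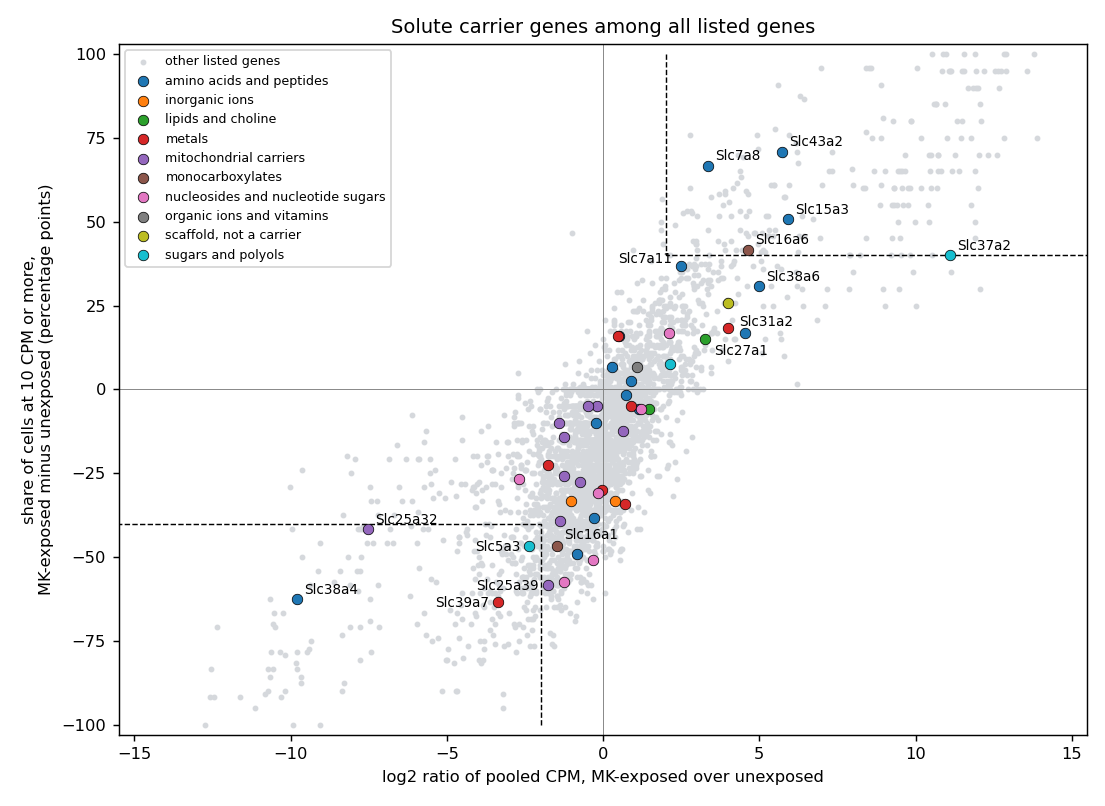
The log2 ratio of pooled CPM, exposed over unexposed cells (x axis), is plotted against the difference in the share of cells at 10 CPM or more, in percentage points (y axis), for the 49 solute carrier genes coloured by substrate group and, in grey, the other listed genes read in 10 or more cells. Dashed lines mark 4-fold and 40 points: 5 solute carrier genes lie inside the upper right corner and 4 inside the lower left.

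The amino acid and peptide transporters formed the largest group, with 16 genes, 15 of them read in enough cells. Pooled CPM was higher in exposed cells for 11 of the 15 and lower for 4, with a median log2 ratio of 0.88; over all genes tested 46.6% were higher. By mean log2(CPM + 1) 10 of the 15 were higher and 5 lower, while 27.8% of all genes were higher. Separating genes were 3 on the exposed side and 1 on the unexposed side, and 3 genes were shared.

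Slc43a2, a sodium-independent carrier of large neutral amino acids (chr11:75531694-75577575, plus strand, GRCm38), ranged from 0 to 506.5 CPM with a median of 33.5 CPM in exposed cells, against 0 to 49.4 CPM with a median of 0 in unexposed cells. It was read in 19 of 20 exposed cells and 2 of 24 unexposed cells, and only the few unexposed cells with reads overlapped the other group's range above 0. Its pooled level was 139.2 CPM in exposed cells and 2.66 CPM in unexposed cells, 52.4-fold higher (37.2 to 76.3). One cell held 93.9% of the unexposed reads, and without the top cell of each group, that with most of the gene's reads, 1627 reads remained in exposed cells and 2 in unexposed cells. In the annotation 7.62% of its exon bases overlap an unlisted gene on the opposite strand.

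Slc7a8, a light chain that exchanges neutral amino acids when bound to Slc3a2 (chr14:54722209-54781946, minus strand), had a lowest, median and highest value of 0, 80.2 and 922 CPM in exposed cells and 0, 0 and 163 CPM in unexposed cells. A level of 10 CPM was reached in 15 of 20 exposed cells (75.0%, exact Clopper-Pearson interval 50.9% to 91.3%) and in 2 of 24 unexposed cells (8.33%, 1.03% to 27%). The pooled difference was 10.3-fold (8.91 to 11.9), with 2652 reads in exposed cells and 205 in unexposed cells, and 16.2-fold without the top cells. Slc7a8 and Slc43a2 were both at 10 CPM or more in 12 of the 20 exposed cells and in 0 of the 24 unexposed cells. For the 0 the limit of 3 counts allows a share of up to 12.5% and the exact interval reaches 14.25%. Alone, Slc43a2 reached 10 CPM in 15 exposed cells and 1 unexposed cell. The rule chose both genes for such shares, so the joint count largely follows from that choice and tests nothing.

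Slc15a3, a lysosomal carrier of histidine and small peptides (chr19:10839727-10859362, plus strand), had a lowest, median and highest value of 0, 11.1 and 527 CPM in exposed cells and 0, 0 and 42.2 CPM in unexposed cells. The pooled level was 97.5 CPM in exposed cells and 1.61 CPM in unexposed cells, a 60.5-fold difference (39.05 to 99.4), and 41.9% of its exposed reads and 95% of its unexposed reads came from 1 cell each. Without those cells 886 reads remained in exposed cells and 1 in unexposed cells. Its relative Slc15a4, also lysosomal, did not follow it: 3 of 20 exposed cells and 5 of 24 unexposed cells reached 10 CPM. One exposed cell held 75.6% of the exposed reads of Slc15a4, and its pooled log2 ratio of 1.14 became −0.27 once the top cell of each group was left out.

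In the opposite direction stood Slc38a4, a sodium-coupled carrier of neutral amino acids (chr15:96994820-97055956, minus strand). It had 2 reads in all 20 exposed cells together, none of which exceeded 1.41 CPM, against a range of 0 to 827 CPM with a median of 18.4 CPM in unexposed cells. Of the unexposed cells 21 had a read and 15 reached 10 CPM (62.5%, 40.6% to 81.2%). The pooled ratio was 889-fold lower in exposed cells (246 to 7345), an interval whose width reflects the 2 reads. Without the top cells 1 read remained in exposed cells and 1151 in unexposed cells. Its 3 tested relatives in family 38 were not lower in exposed cells. Slc38a1, which takes up glutamine, was shared at 90.8 CPM in exposed cells and 74.3 CPM in unexposed cells. Slc38a6 was higher in exposed cells, at 35.7 CPM, against 1.13 CPM in unexposed cells, with 7 exposed cells and 1 unexposed cell at 10 CPM; without the top cells 331 reads remained in exposed cells and 3 in unexposed cells. Slc38a7, which exports glutamine from lysosomes, was also higher in exposed cells at 62.2 CPM, against 2.66 CPM in unexposed cells, but 62.8% of those exposed reads lay in 1 cell, and the 23.4-fold difference became 13.3-fold without the top cells.

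**Figure D2:**
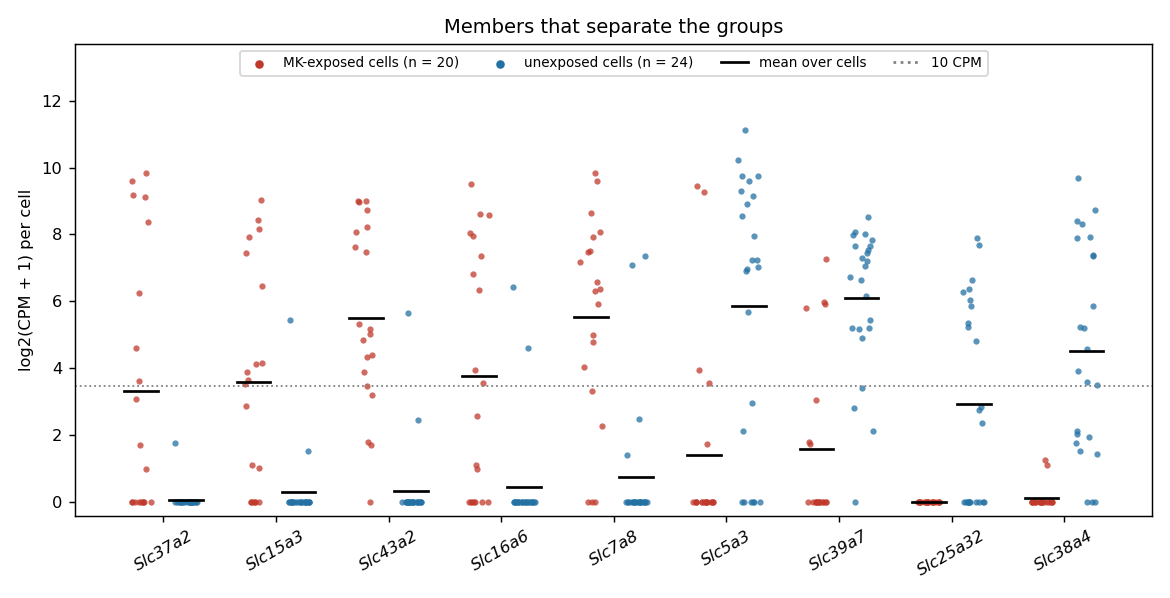
The level in each cell, as log2(CPM + 1), is shown for the 9 separating genes, exposed cells (n = 20) left of unexposed cells (n = 24); bars are means over cells and the dotted line is 10 CPM. Slc37a2, Slc15a3, Slc43a2, Slc16a6 and Slc7a8 have most unexposed cells at 0, while Slc25a32 has all exposed cells at 0 and Slc38a4 has them at or near 0.

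Slc7a11, the light chain that imports cystine in exchange for glutamate (chr3:49892526-50443614, minus strand), lay just outside the rule, and inside it with any read or 20 CPM as the limit. It ranged from 0 to 7613 CPM with a median of 208 CPM in exposed cells, against 0 to 903 CPM with a median of 0 in unexposed cells. The groups overlapped over most of that range. A level of 10 CPM was reached in 14 of 20 exposed cells and 8 of 24 unexposed cells, 36.7 points apart, and the pooled level was 5.61-fold higher in exposed cells (5.19 to 6.06). A single cell held 42.3% of the exposed reads and 1 other 50% of the unexposed reads, and without those cells the difference was 6.67-fold. The highest exposed level, 7613 CPM, was in a shallow cell of 71585 library reads.

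The heavy chain Slc3a2 was shared, with a lowest, median and highest value of 0, 320 and 995 CPM in exposed cells and 0, 184 and 677 CPM in unexposed cells. It reached 10 CPM in 18 of 20 exposed cells and 22 of 24 unexposed cells, and its pooled level was 1.67-fold higher in exposed cells (1.60 to 1.75). The light chains at 10 CPM beside it differed between the groups. With Slc3a2 in nearly every cell, these pair counts nearly repeat those of the light chains and test no pairing. Alone, Slc7a8 reached 10 CPM in 15 exposed cells and 2 unexposed cells, and Slc7a11 in 14 exposed cells and 8 unexposed cells. Slc7a6 alone reached it in 1 exposed cell and 13 unexposed cells. Slc7a8 with Slc3a2 was found in 13 exposed cells and 2 unexposed cells, and Slc7a11 with Slc3a2 in 13 exposed cells and 7 unexposed cells. Slc7a6, a light chain for cationic and neutral amino acids, stood beside Slc3a2 in 0 of 20 exposed cells and in 12 unexposed cells; for the 0 the limit of 3 counts allows a share of up to 15% and the exact interval reaches 16.8%. One exposed cell held 99.2% of the exposed reads of Slc7a6, so that the pooled log2 ratio was −0.83 with that cell and −7.36 once the top cell of each group was left out. Slc7a7, the closest relative of Slc7a6 in its substrates, was near even, at 35.4 CPM in exposed cells and 41.1 CPM in unexposed cells.

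Among family 6, the taurine transporter gene Slc6a6 was shared. Its lowest, median and highest values were 7.75, 405 and 1035 CPM in exposed cells, against 0, 222 and 511 CPM in unexposed cells. The ranges overlapped, with a pooled level 1.85-fold higher in exposed cells (1.76 to 1.93). Under scaling by median ratios the difference passed 2-fold and Slc6a6 was no longer shared. Slc6a8, the creatine transporter, reached 10 CPM in 4 of 20 exposed cells and 14 of 24 unexposed cells although pooled CPM was close, at 73.8 CPM in exposed cells and 90.5 CPM in unexposed cells; 1 exposed cell held 52.4% of the exposed reads, and without the top cells the level was 1.98-fold lower in exposed cells. The lysosomal carrier Slc36a1 had 163 reads in exposed cells and 91 in unexposed cells, but 96.7% of the unexposed reads lay in 1 cell, and without the top cells 45 reads remained in exposed cells and 3 in unexposed cells. Slc36a4 was read in too few cells to be called.

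**Figure D3:**
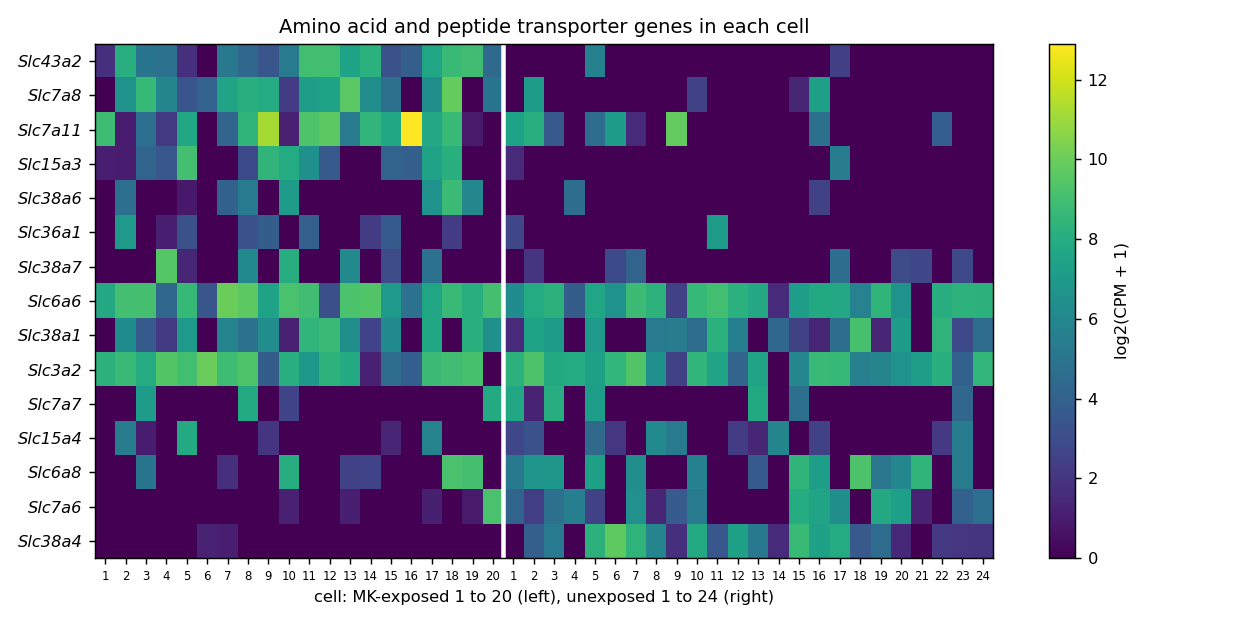
Each column is a cell, exposed cells 1 to 20 left of the white line and unexposed cells 1 to 24 right of it, and each row is 1 of the 15 amino acid and peptide transporter genes; colour gives log2(CPM + 1). Slc6a6 and Slc3a2 are coloured across both groups, Slc43a2 and Slc7a8 mostly on the left, and Slc38a4 and Slc7a6 mostly on the right.

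The monocarboxylate transporters were represented by Slc16a1 and Slc16a6, which differed in opposite directions. Slc16a6 (chr11:109450855-109473598, minus strand), whose zebrafish relative exports ketone bodies from the liver, had a lowest, median and highest value of 0, 7.86 and 728 CPM in exposed cells and 0, 0 and 84.8 CPM in unexposed cells. A level of 10 CPM was reached in 10 of 20 exposed cells and 2 of 24 unexposed cells, and the pooled ratio was 24.96-fold, higher in exposed cells (19.5 to 32.4); 1 cell held 78.8% of the unexposed reads, and without the top cells the ratio was 82.2-fold. Its exons overlap those of Amz2 on the opposite strand over 14.6% of their bases. Amz2 went the other way, at 21.4 CPM in exposed cells and 61.0 CPM in unexposed cells.

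Slc16a1, the main carrier of lactate and pyruvate in many tissues, ranged from 0 to 437 CPM with a median of 0 in exposed cells, against 0 to 877 CPM with a median of 46.3 CPM in unexposed cells. A level of 10 CPM was reached in 4 of 20 exposed cells and 16 of 24 unexposed cells. It missed the rule on fold alone, being 2.75-fold lower in exposed cells (2.52 to 3.01), and was 5.54-fold lower without the top cell of each group; 1 cell held 62.3% of its exposed reads. Of the reads of both genes together, Slc16a1 made up 25.6% in exposed cells and 95.9% in unexposed cells.

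The partner genes of the lactate transporters of family 16 were read in both groups. Emb, named in the title of the study, had 1116 CPM in exposed cells and 107 CPM in unexposed cells, and reached 10 CPM in 20 of 20 exposed cells and 15 of 24 unexposed cells. Bsg had 111 CPM in exposed cells and 245 CPM in unexposed cells. Slc16a6 stood beside Emb at 10 CPM in 10 exposed cells and 2 unexposed cells, and Slc16a1 beside Emb in 4 exposed cells and 11 unexposed cells. Because every exposed cell reached 10 CPM of Emb, the exposed numbers only repeat the counts of Slc16a6 and Slc16a1. Whether Slc16a6 pairs with embigin was not tested. The pair of Slc16a1 and Bsg was found in 1 exposed cell and 15 unexposed cells. Bsg alone reached 10 CPM in 14 exposed cells and 23 unexposed cells, so the unexposed number nearly repeats the 16 cells with Slc16a1.

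In the sugar and polyol group, Slc37a2 separated the groups on the exposed side and Slc5a3 on the unexposed side. Slc37a2, a glucose-6-phosphate carrier of the endoplasmic reticulum known from macrophages (chr9:37227585-37255738, minus strand), had 2746 reads in exposed cells and 1 read in unexposed cells. It ranged from 0 to 907 CPM with a median of 1.65 CPM in exposed cells, while the 1 read amounted to 2.38 CPM in its unexposed cell. Of the exposed cells 8 of 20 were at 10 CPM or more (40%, 19.1% to 63.95%), against 0 of 24 unexposed cells (limit of 3 counts 12.5%, exact interval up to 14.25%). The pooled ratio of 2180-fold had an interval of 391 to 86130, and the gap of 40 points lay on the limit of the rule; without the top cell of each group it was 36.8 points and the call was lost, with 2134 reads left in exposed cells and 0 in unexposed cells. No read of it was found in 9 exposed cells, so at this depth it was detected in some cells of that group and not in others. Its relative Slc37a4, which brings glucose-6-phosphate to the enzyme that frees glucose, was 4.40-fold higher in exposed cells (3.66 to 5.32) but reached 10 CPM in only 4 exposed cells and 3 unexposed cells.

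Slc5a3, which takes up myo-inositol with sodium (chr16:92058322-92087473, plus strand), ranged from 0 to 694.5 CPM with a median of 0 in exposed cells, against 0 to 2250 CPM with a median of 140.2 CPM in unexposed cells. There was no read in 15 exposed cells, against 6 unexposed cells, and the ranges overlapped through a few high exposed cells. The pooled level was 5.16-fold lower in exposed cells (4.84 to 5.50), and 8.00-fold lower without the top cells. Slc45a4, placed with putative sugar carriers, was read in too few cells.

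All 7 listed metal transporter genes were read in enough cells, of which 1 separated the groups and 2 were shared. Slc39a1, which brings zinc into the cell, was shared. Its lowest, median and highest values were 0, 498 and 2487 CPM in exposed cells, against 217, 372 and 1050 CPM in unexposed cells. The pooled level was 1.86-fold higher in exposed cells (1.80 to 1.93), and under scaling by median ratios the difference passed 2-fold. Slc48a1, which moves haem from lysosomes to the cytosol, was shared at 126.7 CPM in exposed cells and 91.7 CPM in unexposed cells.

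Slc39a7, which releases zinc from the endoplasmic reticulum (chr17:34028269-34031682, minus strand), separated the groups on the unexposed side. It ranged from 0 to 154 CPM with a median of 0 in exposed cells, against 0 to 365 CPM with a median of 118 CPM in unexposed cells. A level of 10 CPM was reached in 4 of 20 exposed cells and 20 of 24 unexposed cells, with a pooled ratio 10.2-fold lower in exposed cells (8.85 to 11.9). In the annotation 84.5% of its exon bases are shared with another gene on the same strand, Gm20427, so its reads may have been split in counting. Slc30a7, which loads zinc into the Golgi, was 3.36-fold lower in exposed cells (3.08 to 3.67), and 5.91-fold lower without the top cells. Slc39a9 was 1.62-fold higher by pooled CPM but 80.5% of its exposed reads lay in 1 cell; 4 of 20 exposed cells and 13 of 24 unexposed cells reached 10 CPM, and its log2 ratio of 0.70 became −1.13 without the top cell of each group.

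The copper transporters were uneven. Slc31a1, the high-affinity copper importer, had a pooled level of 185 CPM in exposed cells and 189 CPM in unexposed cells, with 9 of 20 exposed cells and 18 of 24 unexposed cells at 10 CPM. Slc31a2, its low-affinity relative of endosomes and lysosomes, was 16.0-fold higher in exposed cells (13.0 to 19.9), at 121.2 CPM, against 7.57 CPM in unexposed cells, with 7 exposed cells and 4 unexposed cells at 10 CPM. Slc31a1 made up 60.4% of the reads of both genes in exposed cells and 96.2% in unexposed cells. Per kilobase of exon the order in exposed cells was the reverse, at 43.2 CPM per kb for Slc31a1 and 59.6 CPM per kb for Slc31a2. One cell held 38.5% of the exposed Slc31a1 reads.

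Of the 13 carriers of mitochondria, 10 were read in enough cells, and pooled CPM was lower in exposed cells for 9 and higher for 1, with a median log2 ratio of −1.24. Means of log2(CPM + 1) were lower in exposed cells for all 10. Among all 3271 genes tested, 1747 were lower in exposed cells by pooled CPM and 2362 by mean log2(CPM + 1). Slc25a5, an ADP/ATP carrier, was shared and had the highest level of all 59 genes per kilobase of exon, at 686 CPM per kb in exposed cells and 953 CPM per kb in unexposed cells. Its lowest, median and highest values were 0, 898 and 1319 CPM in exposed cells, against 519, 1205 and 2303 CPM in unexposed cells. The ranges overlapped widely, and the pooled level was 1.39-fold lower in exposed cells (1.36 to 1.42). The exposed cell at 0 was the cell of 71585 library reads, which was also at 0 for Slc39a1 and for Slc25a3, the phosphate carrier.

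Slc25a3 was shared as well, at 417 CPM in exposed cells and 480 CPM in unexposed cells. Slc25a4, the other ADP/ATP carrier, was read in all but 1 of the 44 cells yet was 2.66-fold lower in exposed cells (2.57 to 2.76), with a median of 183.5 CPM per cell, against 836.5 CPM in unexposed cells. It made up 24.8% of the reads of both ADP/ATP carrier genes in exposed cells and 38.7% in unexposed cells. Slc25a46, which acts in mitochondrial shape, was the third shared carrier, with 5 of 20 exposed cells and 9 of 24 unexposed cells at 10 CPM. The exposed share lay on the 25% limit of the rule, and the call was lost without the top cell of each group. The pooled log2 ratio of Slc25a46 was 0.63 while the difference in mean log2(CPM + 1) was −0.61. Pseudogenes of Slc25a5 and Slc39a1 are annotated, and reads could have been split between gene and copy.

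Slc25a32, which carries folate into mitochondria (chr15:39091231-39112716, minus strand), had no read in any of the 20 exposed cells and 442 reads in 13 of the 24 unexposed cells. Its level ranged from 0 to 235 CPM with a median of 4.95 CPM in unexposed cells, so that 11 of them were also at 0. With a floor of 3 reads for the whole exposed group, it was at least 185.6-fold lower in exposed cells; the exact interval for no read begins at 150.3-fold. The share of cells at 10 CPM differed by −41.7 points, exposed minus unexposed, and by −39.1 points without the top cell of each group, when the call was lost. Slc25a39, which imports glutathione, was next to the rule: it was 3.43-fold lower in exposed cells (3.06 to 3.84), with 5 of 20 exposed cells and 20 of 24 unexposed cells at 10 CPM, and 6.07-fold lower without the top cells. Slc25a24, the calcium-regulated carrier of ATP-magnesium and phosphate, had the largest difference in mean log2(CPM + 1) among the intermediate carriers of mitochondria, at 2.39 ± 3.21 in exposed cells and 5.83 ± 2.79 in unexposed cells (SD over cells, n = 20 and 24). Slc25a36 for pyrimidine nucleotides and Slc25a37 for iron were 2.36-fold and 2.37-fold lower in exposed cells, and 4.16-fold and 4.79-fold lower without the top cells. Slc25a44 for branched-chain amino acids was 1.68-fold lower, although 1 cell held 91.6% of its exposed reads; without the top cells it was 14.6-fold lower.

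**Figure D4:**
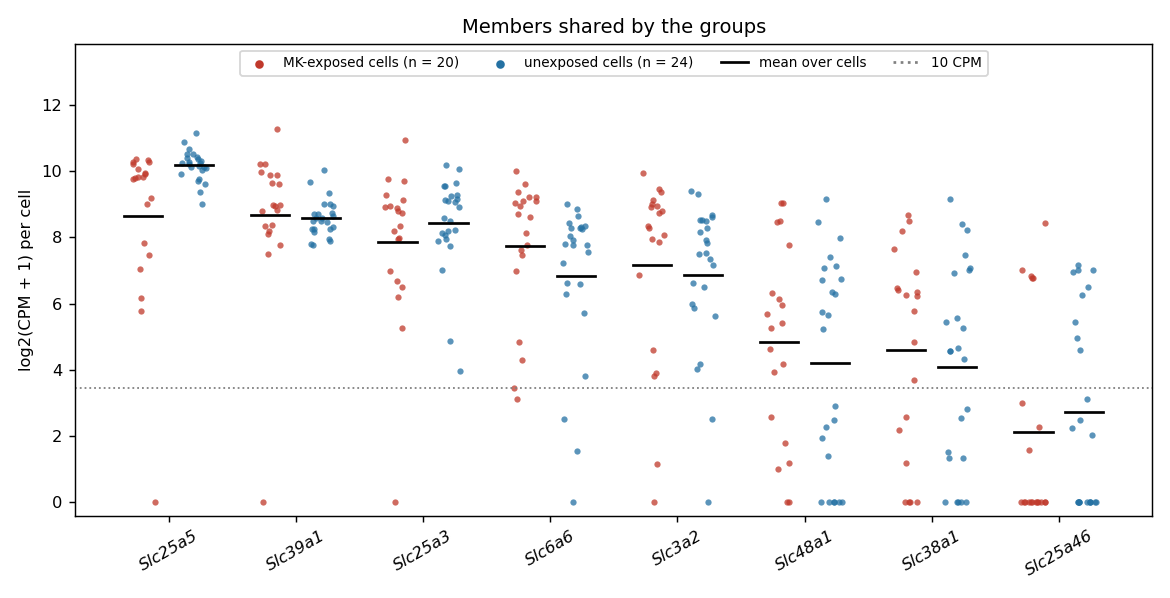
The level in each cell, as log2(CPM + 1), is shown for the 8 shared genes, exposed cells (n = 20) left of unexposed cells (n = 24); bars are means over cells and the dotted line is 10 CPM. Slc25a5, Slc39a1 and Slc25a3 lie above 10 CPM in all cells but 1 exposed cell, while Slc25a46 is at 0 in 12 exposed cells and 11 unexposed cells.

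None of the 6 transporters of nucleosides and nucleotide sugars separated the groups or was shared. Slc35b2, which carries the sulfate donor into the Golgi, reached 10 CPM in 1 of 20 exposed cells and 15 of 24 unexposed cells. That 1 cell held 99.2% of its exposed reads, and the pooled level was 2.40-fold lower in exposed cells with it. Once the top cell of each group was left out, 3 reads remained in exposed cells and 477 in unexposed cells. Slc35b1, an ATP and ADP exchanger of the endoplasmic reticulum, had 9 of 20 exposed cells and 23 of 24 unexposed cells at 10 CPM at pooled levels of 168 CPM in exposed cells and 209.5 CPM in unexposed cells. Slc35e1 was 6.46-fold lower in exposed cells (5.36 to 7.84), and 15.4-fold lower without the top cells. Pooled CPM was higher in exposed cells for Slc29a3, the lysosomal nucleoside transporter, at 4.30-fold (3.47 to 5.38), and Slc35a5, at 2.34-fold (1.89 to 2.91). For Slc29a3 1 cell held 75.3% of the exposed reads, and without the top cells the difference was 2.93-fold. A level of 10 CPM of Slc29a3 was reached in 5 exposed cells and 2 unexposed cells. Slc35a5 reached it in 3 of 20 exposed cells and 5 of 24 unexposed cells. Slc35a4 was close to even by pooled CPM only, at 224 CPM in exposed cells and 250.5 CPM in unexposed cells. It reached 10 CPM in 13 of 20 exposed cells and 23 of 24 unexposed cells. By mean log2(CPM + 1) it was lower in exposed cells, by a difference of −1.80.

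Of 6 genes for inorganic ions, 2 were read in enough cells. Slc20a1, a sodium-coupled phosphate importer, had a lowest, median and highest value of 0, 19.2 and 1191 CPM in exposed cells and 0, 315 and 2216 CPM in unexposed cells, and its pooled level was 2.03-fold lower in exposed cells (1.95 to 2.12). Slc4a7, a sodium bicarbonate cotransporter, was 1.31-fold higher by pooled CPM (1.20 to 1.42), with 5 of 20 exposed cells and 14 of 24 unexposed cells at 10 CPM. One exposed cell held 50.3% of those reads, and the log2 ratio was −0.31 without the top cells.

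Among the remaining groups, Slc27a1, a fatty acid transporter, was 9.66-fold higher in exposed cells (8.37 to 11.2). It had 2494 reads in exposed cells and 205 in unexposed cells, but 8 exposed cells and 6 unexposed cells at 10 CPM, 15 points apart. Slc33a1, which moves acetyl-CoA into the endoplasmic reticulum, was 2.75-fold higher in exposed cells by pooled CPM (2.43 to 3.13) and 1.86-fold without the top cells. By mean log2(CPM + 1) it was lower in exposed cells, by a difference of −0.38, and 3 of 20 exposed cells and 5 of 24 unexposed cells reached 10 CPM. Slc23a2, the ascorbate transporter, was 2.14-fold higher (1.92 to 2.39), with 8 cells in each group, and 74.5% of its exposed reads lay in 1 cell; without the top cells the levels were within 1.03-fold. Slc9a3r1 is a scaffold protein of membrane transporters and no carrier itself, although its symbol fits the rule. It was 16.0-fold higher in exposed cells (11.4 to 23.0), with 6 exposed cells and 1 unexposed cell at 10 CPM. One cell held 94.4% of the unexposed reads, and without the top cells 420 reads remained in exposed cells and 2 in unexposed cells.

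The other 10 genes were read in fewer than 10 cells and were not called. Slc26a7 was listed at 0 in all 44 cells, and Slc26a9 had 1 read in all. Slc8b1, the sodium and calcium exchanger of mitochondria, had 149 reads in exposed cells and 4 in unexposed cells. The opposite was seen for Slc36a4, with 48 reads in exposed cells and 401 in unexposed cells, and Slc25a33, with 0 in exposed cells and 29 in unexposed cells. The other 5 were Slc22a4, Slc25a14, Slc26a6, Slc45a4 and Slc4a2.

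**Figure D5:**
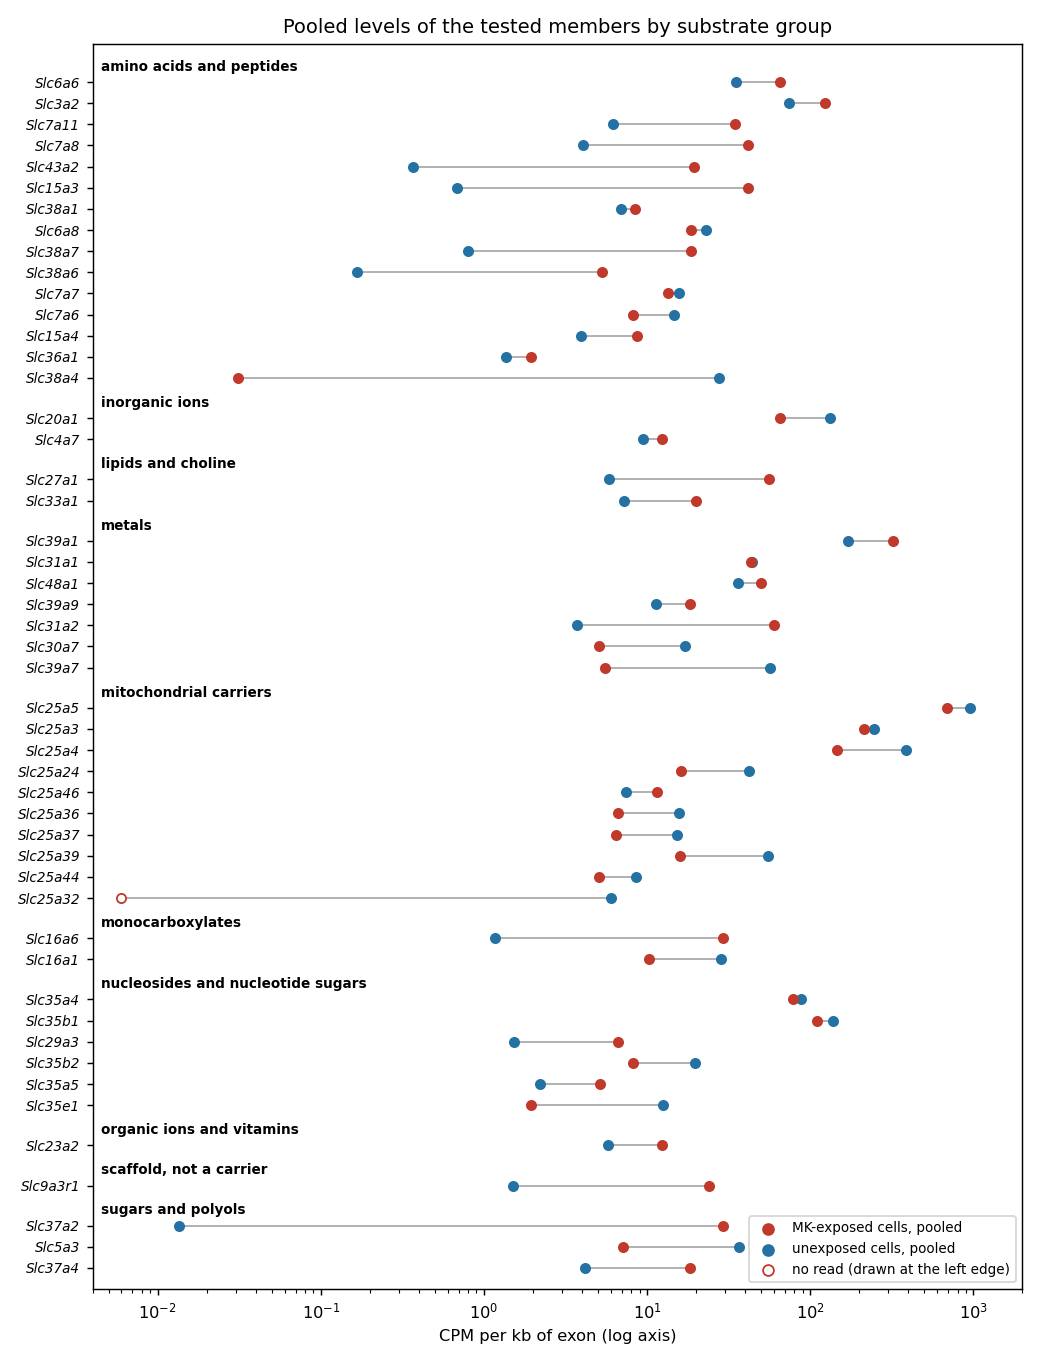
Pooled levels of the 49 genes in CPM per kilobase of exon (log axis) are shown by substrate group, exposed cells in red and unexposed cells in blue, joined by a line for each gene. Slc25a5 is highest in both groups, at 686 CPM per kb in exposed cells and 953 CPM per kb in unexposed cells, and the open circle at the left edge marks Slc25a32, with no read in exposed cells.

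Per kilobase of exon the same 4 genes led in both groups. After Slc25a5 came Slc39a1, Slc25a3 and Slc25a4 in exposed cells, at 320, 214 and 145.5 CPM per kb, and Slc25a4, Slc25a3 and Slc39a1 in unexposed cells, at 387, 247 and 171 CPM per kb. Slc31a2 was the tenth in exposed cells at 59.6 CPM per kb and the 41st in unexposed cells at 3.72 CPM per kb. This order, and the shares of reads within pairs of genes given above, assume that no gene's reads are understated by the common factor described above.

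Fewer of the 59 genes were found per exposed cell. A median of 18.5 of them (range 10 to 30) reached 10 CPM in exposed cells, against 25 (range 14 to 38) in unexposed cells. The difference over all listed genes had the same direction: 44.1% of them reached 10 CPM in the median exposed cell and 59.5% in the median unexposed cell. After thinning each cell to 310000 reads, which left out 2 shallower cells of each group, the medians were 19 in exposed cells and 25 in unexposed cells. Of the 5 genes that separated on the exposed side, exposed cells held a median of 3 at 10 CPM (range 1 to 4) and unexposed cells a median of 0 (range 0 to 1). Of the 4 on the other side, exposed cells held a median of 0 (range 0 to 2) and unexposed cells a median of 3 (range 1 to 4). No exposed cell held all 5 of its genes, and 2 unexposed cells held all 4 of theirs. These numbers describe the genes that the rule chose and test nothing.

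Reads were often concentrated in 1 cell. The top cell held more than 50% of the exposed reads for 19 of the 48 genes with reads there, and more than 50% of the unexposed reads for 11 of 49. The median share of the top cell was 42% in exposed cells and 27.4% in unexposed cells. Slc25a3, Slc25a4, Slc25a5, Slc39a1, Slc3a2 and Slc6a6 were the 6 genes read in all cells of each group but at most 1.

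Promoter sequence was looked up for all 59 genes, and RefSeq gave 62 promoters for 45 of the 59 genes (GRCm38.p6, 250 bases before to 50 after the start). Slc37a2 is shown as a separating gene with 1 unexposed read, and Slc7a11 and Slc16a1 as intermediate genes, 1 on each side. Capitals mark matches to the motifs named below. Each window shown holds such a match, which most separating and shared genes with a promoter do not. Slc25a39, nearer to the rule than Slc16a1 at 3.43-fold against 2.75-fold, has a promoter with no match and is not shown.
Slc37a2 promoter, chr9:37255689-37255988, minus strand: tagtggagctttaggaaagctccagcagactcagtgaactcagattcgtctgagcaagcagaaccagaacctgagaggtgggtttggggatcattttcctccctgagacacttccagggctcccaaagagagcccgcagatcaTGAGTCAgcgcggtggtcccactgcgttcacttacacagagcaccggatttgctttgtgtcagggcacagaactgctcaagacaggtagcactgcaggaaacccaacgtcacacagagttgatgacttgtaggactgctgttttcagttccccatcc
Slc7a11 promoter, chr3:50443564-50443863, minus strand: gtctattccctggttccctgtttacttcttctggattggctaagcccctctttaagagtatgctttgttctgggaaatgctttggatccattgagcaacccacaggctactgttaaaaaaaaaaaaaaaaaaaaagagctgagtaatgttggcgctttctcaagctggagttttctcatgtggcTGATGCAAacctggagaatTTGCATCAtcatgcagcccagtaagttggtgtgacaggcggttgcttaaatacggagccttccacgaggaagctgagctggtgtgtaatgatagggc
Slc16a1 promoter, chr3:104638414-104638713, plus strand: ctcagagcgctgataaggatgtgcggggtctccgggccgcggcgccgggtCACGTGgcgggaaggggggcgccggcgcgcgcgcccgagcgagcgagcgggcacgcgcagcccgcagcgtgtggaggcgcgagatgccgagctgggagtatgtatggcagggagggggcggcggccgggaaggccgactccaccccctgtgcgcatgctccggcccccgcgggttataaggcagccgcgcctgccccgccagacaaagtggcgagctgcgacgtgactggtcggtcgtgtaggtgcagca

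On both strands 4 motifs were searched: GAGGAAGT, bound by the macrophage factor PU.1; the E-box CACGTG; TGATGNAA, a form of the amino acid response element bound by Atf4; and the AP-1 motif TGANTCA. The Slc37a2 window holds 1 AP-1 match that begins 107 bases before the start. The Slc7a11 window holds 2 amino acid response element matches, on opposite strands, that begin 66 and 47 bases before the start. In the Slc16a1 window the E-box begins 200 bases before the start. No match overlapped another in these windows. Over all 32851 promoters of the table the shares with a match were 3.20% for PU.1, 7.15% for the E-box, 3.97% for the amino acid response element and 7.81% for AP-1; over the 62 promoters they were 3.23%, 21.0%, 4.84% and 3.23%. The 13 promoters with an E-box belong to 12 genes, none of them separating or shared. The 2 Slc25a14 promoters among the 13 overlap and hold the same site. Only 3 separating genes on each side and 4 shared genes had a promoter to search. Of all genes with a promoter 8.09% held an E-box, so the lack of a match in so few genes shows no difference. Of the separating genes with a promoter, Slc37a2 alone held a match to any of the 4 motifs, and no shared gene with a promoter did. A match describes letters and was not tested for binding or for an effect on these levels.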

How the data were processed

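Single-cell RNA was amplified with a SMART-Seq kit and sequenced from Nextera XT libraries, per the labels' protocols. Per the submitters' processing notes, mm10 was the build and Seurat a tool; how reads were aligned and counted, and whether by strand, is not given in the sources used here. Each deposited value is a signal, in the form of RPKM, equal to reads × 1e+09 / (library reads × a whole divisor per gene). The divisor had no relation to exon length (Spearman −0.0199 across 3472 genes). Whole reads were recovered for all 99807 values above 0 (tolerance 0.0001), and CPM was computed from them. The search for divisors was also run on simulated reads, built with the library reads and divisors recovered here. That run cannot test the library reads, nor show whether the reads of a gene are understated by a common factor. No normalized value was averaged in place of reads except as an alternative. Groups follow the treatment label, no column was left out, and no test was run. Intervals are exact Poisson, Clopper-Pearson or binomial, at 95%; reads carry no molecular identifiers. No doublet caller was run; in each cell the markers of 1 type dominated.

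Members, substrate groups, marker lists and thresholds were chosen with earlier results of these data known. Described in depth, by rule, were the separating genes, the shared gene with the highest CPM per substrate group, family 16, and the intermediate gene with the largest difference in mean log2(CPM + 1) per substrate group; others are named where single cells or a shared partner bear on them. The design expected read counts, and the deposited signal gave them back. Coordinates and exon lengths are from GENCODE (GRCm38), where all 59 symbols matched. Over 5% of exon bases were shared with another gene for 14 of them. Alternatives covered detection limit, depth, single cells, scaling, unit, filter and threshold. Python 3.11.15, pandas 2.3.3, NumPy 2.4.6, SciPy 1.17.1 and matplotlib 3.10.9 were used.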

Additional observations from a re-analysis of the deposited data

How the results depend on the processing

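The count of 5 genes that separated on the exposed side was 3 with a limit of 20 CPM, 3 with cells thinned to 310000 reads (18 exposed and 22 unexposed cells, shallower ones left out) and 3 with listed reads as the total; it was between 4 and 6 under the other alternatives. Slc43a2 and Slc7a8 remained in every alternative run. The count of 4 on the unexposed side became 7 without the top cell of each group, 7 at a 2-fold threshold and 9 by the mean of log2(CPM + 1), and was between 3 and 5 otherwise. Slc16a1, Slc25a39 and Slc35b2 were gained in all 3 of these, and Slc25a32 was lost by thinning and without the top cells. On the other side Slc37a2 was lost without the top cells, at 20 CPM and with listed reads as the total, Slc16a6 by thinning, at 20 CPM and with listed reads, and Slc15a3 by thinning and at 20 CPM, while Slc7a11 was gained at 20 CPM and with any read. The shared count of 8 ranged from 6 to 12. Slc25a46 was lost from it without the top cells, Slc25a5 by the mean of log2(CPM + 1), and Slc39a1 and Slc6a6 under scaling by median ratios. None of the 9 separating genes changed direction. The rule had chosen them for large differences, so this does not test the calls. Of the 49, 7 changed direction in at least 1 alternative, and 25 moved over 1.5-fold without the top cells. The cause was not tested. Scaling by median ratios shifted every log2 ratio by 0.15 upward and listed reads as the total by 0.26 downward; Slc31a1 changed sign under the first and no gene under the second. No paired analysis was possible because each group is 1 sample and cell numbers do not pair cells. With 20 and 24 cells, a gene at 0 in a group is not detected at this depth.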

Other observations

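Other genes of transporters and related proteins, which the symbol rule leaves out, were counted in the same way. Of 47 genes of pumps and of the ABC family, 24 were listed and 23 read in enough cells. By pooled CPM 21 of the 23 were higher and 2 lower in exposed cells, with a median log2 ratio of 1.09, while 46.6% of all genes tested were higher. Many of the 24 belong to the vacuolar proton pump, and not all ABC family members are transporters, so these are not counts of separate transporters. By mean log2(CPM + 1) 14 of the 23 were higher and 9 lower, with a median difference of 0.52, while 27.8% of all genes were higher. Abcg1, which exports cholesterol, had 965.5 CPM in exposed cells and 40.1 CPM in unexposed cells, and Tcirg1, a subunit of the vacuolar proton pump, had 242 CPM in exposed cells and 11.7 CPM in unexposed cells; both met the separating rule on the exposed side. Other subunits of that pump were intermediate, such as Atp6v1a at 420 CPM in exposed cells and 110 CPM in unexposed cells, or shared, such as Atp6v1h at 264 CPM in exposed cells and 191 CPM in unexposed cells. The copper pump gene Atp7a had 65.0 CPM in exposed cells and 24.8 CPM in unexposed cells.

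Of 13 listed carriers of solute carrier families under other names, 12 were read in enough cells. Ucp2, a mitochondrial carrier of family 25, separated the groups at 543 CPM in exposed cells and 6.28 CPM in unexposed cells, with 19 of 20 exposed cells and 2 of 24 unexposed cells at 10 CPM; its direction was opposite to that of 9 of the 10 mitochondrial carriers above. Mtch2, at 254 CPM in exposed cells and 249.5 CPM in unexposed cells, was 1 of 4 that were shared. Slco2b1, an organic anion transporter, had 535 reads in exposed cells and 0 in unexposed cells, yet only 1 cell reached 10 CPM.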
